A study of Mus musculus with 17 samples.

Results

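The genes described are the eukaryotic translation initiation factors, taken as every protein-coding gene whose symbol begins with Eif followed by a digit from 1 to 6. There are 55 of them among the 21974 protein-coding genes listed in the files. Of these, 48 are subunits of initiation factors or related proteins, 3 are Eif4ebp genes, which encode 4E-binding proteins, and 4 are Eif2ak genes, which encode kinases of eIF2α. A further 11 symbols match the pattern but belong to genes that are not protein-coding, and they were left out.

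RNA was taken from HA-tagged ribosomes that had been immunoprecipitated from the microdissected corpus callosum of male GFAP-Cre+/- Rpl22HA/wt mice, aged 8 to 9 weeks at the start. In these mice Cre under the GFAP promoter switches on the HA tag on the ribosomal protein Rpl22, and every mouse of every group carried both alleles. Cuprizone, a copper chelator that kills oligodendrocytes, was given at 0.2% in chow for 5 weeks and then withdrawn. Tissue was collected at the end of feeding (5 weeks, acute demyelination), soon after withdrawal (5.5 weeks, early in remyelination) and at 7 weeks, late in remyelination, each time with mock mice of the same age on a normal diet. The values are therefore levels of ribosome-bound RNA. Total RNA was not analysed here, so a change in transcript amount and a change in ribosome loading cannot be told apart. Fewer cells of a type and less RNA per cell cannot be told apart either.

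The labels give 17 libraries, but 8 of them repeat another library of their group in a large share of their genes. A share over 40% was taken to mark a repeat. Between 46.6% and 96.2% of their genes with 500 or more counts lie 1 to 10 counts above that other library. The 9 libraries that remained hold between 20797535 and 30400048 counts. At 5.5 weeks there were 3 cuprizone libraries (replicates 1, 2 and 3) and 2 mock libraries (replicates 1 and 3), which allowed a test. At 5 weeks (cuprizone 1, mock 2) and 7 weeks (cuprizone 2, mock 3) there was 1 library per group, so those comparisons have no replicate check of their own. Tests that involve them come from a fit of all 9 libraries, which assumes that a lone library varies like the 5.5-week groups. The 5-week libraries are batch 1 and the others batch 2 in the labels, so week and batch cannot be told apart when 5 weeks is set against the later weeks. All 10 astrocyte markers had counts in all 9 libraries, with summed levels of 8967 to 18725 CPM, but neuron markers (7193 to 14243 CPM) and mature oligodendrocyte markers (10096 to 22189 CPM) were as abundant.

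Initiation is the step at which the small ribosomal subunit finds the start codon of an mRNA. The eIF2 complex brings the initiator tRNA as a GTP-bound ternary complex, eIF2B recharges eIF2 with GTP, and the eIF2α kinases slow this recharging under stress, while a few mRNAs such as that of Atf4 are then translated more. The eIF4F complex (the cap-binding protein eIF4E, the scaffold eIF4G and the helicase eIF4A) recruits the mRNA, and 4E-binding proteins hold eIF4E back until mTORC1 phosphorylates them. The large eIF3 complex, eIF1, eIF1A, eIF5 and eIF5B act in scanning, start-codon choice and subunit joining.

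Levels are given in CPM, counts relative to the size of the library, scaled by TMM (trimmed mean of M values) within each week. To compare genes with each other, CPM was divided by the gene's summed exon length in kilobases. In the 2 mock libraries of 5.5 weeks, Eif5a, which helps ribosomes through difficult peptide bonds, stood highest at 365 ± 26.3 CPM per kb (SD, n = 2). Eif1, the start-codon fidelity factor, followed at 256 ± 18.7 CPM per kb, and Eif4h, a cofactor of the helicase, at 132 ± 0.918 CPM per kb. The helicases Eif4a2 (113 ± 3.99 CPM per kb) and Eif4a1 (109 ± 8.47 CPM per kb) came next, and their ranges overlapped. At the low end were the kinases Eif2ak2 (2.57 ± 0.0865 CPM per kb), Eif2ak3 (1.48 ± 0.271 CPM per kb) and Eif2ak4 (1.27 ± 0.142 CPM per kb), of which the last pair overlapped. Eif4e1b, an eIF4E form of germ cells, had 0 counts in every library, and Eif4ebp3 had a single count, in the 7-week cuprizone library.

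3 stretches of promoter sequence are shown for members that the results turn on. They come from RefSeq windows of 250 bases before to 50 bases after a gene's annotated start (GRCm38.p6), which cover 43 of the 55 members in 56 windows. The first is from Eif2ak2, the member with the smallest p at 5.5 weeks. It is a stretch of 30 bases at chr17:78882535-78882564 on the minus strand, and its capitals mark a match to the interferon-stimulated response element core, which begins 18 bases after the annotated start.
Eif2ak2: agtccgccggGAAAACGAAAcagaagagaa
The other 2 are the 100 bases before the start of Eif2b5 (chr16:20498717-20498816, plus strand) and of Eif3b (chr5:140419205-140419304, plus strand), shown because both genes were over 2-fold higher at 5 weeks and varied alike between the mock libraries.
Eif2b5: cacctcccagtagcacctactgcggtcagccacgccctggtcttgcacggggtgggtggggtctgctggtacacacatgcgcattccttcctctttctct
Eif3b: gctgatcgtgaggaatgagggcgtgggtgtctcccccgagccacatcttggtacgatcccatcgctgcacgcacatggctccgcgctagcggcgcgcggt
2 motifs were searched on both strands of every window. The interferon-type core GAAANNGAAA was found in 3.44% of the 32851 windows in the table and in those of 4 members (Eif2ak2, Eif2s1, Eif2s3x and Eif3a). The ATF4-type motif TGATGNAA was found in 3.97% of all windows and in that of 1 member, Eif2s3x. The windows of Eif2b5 and Eif3b held neither, and these matches are descriptions of letters only.

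**Figure D1:**
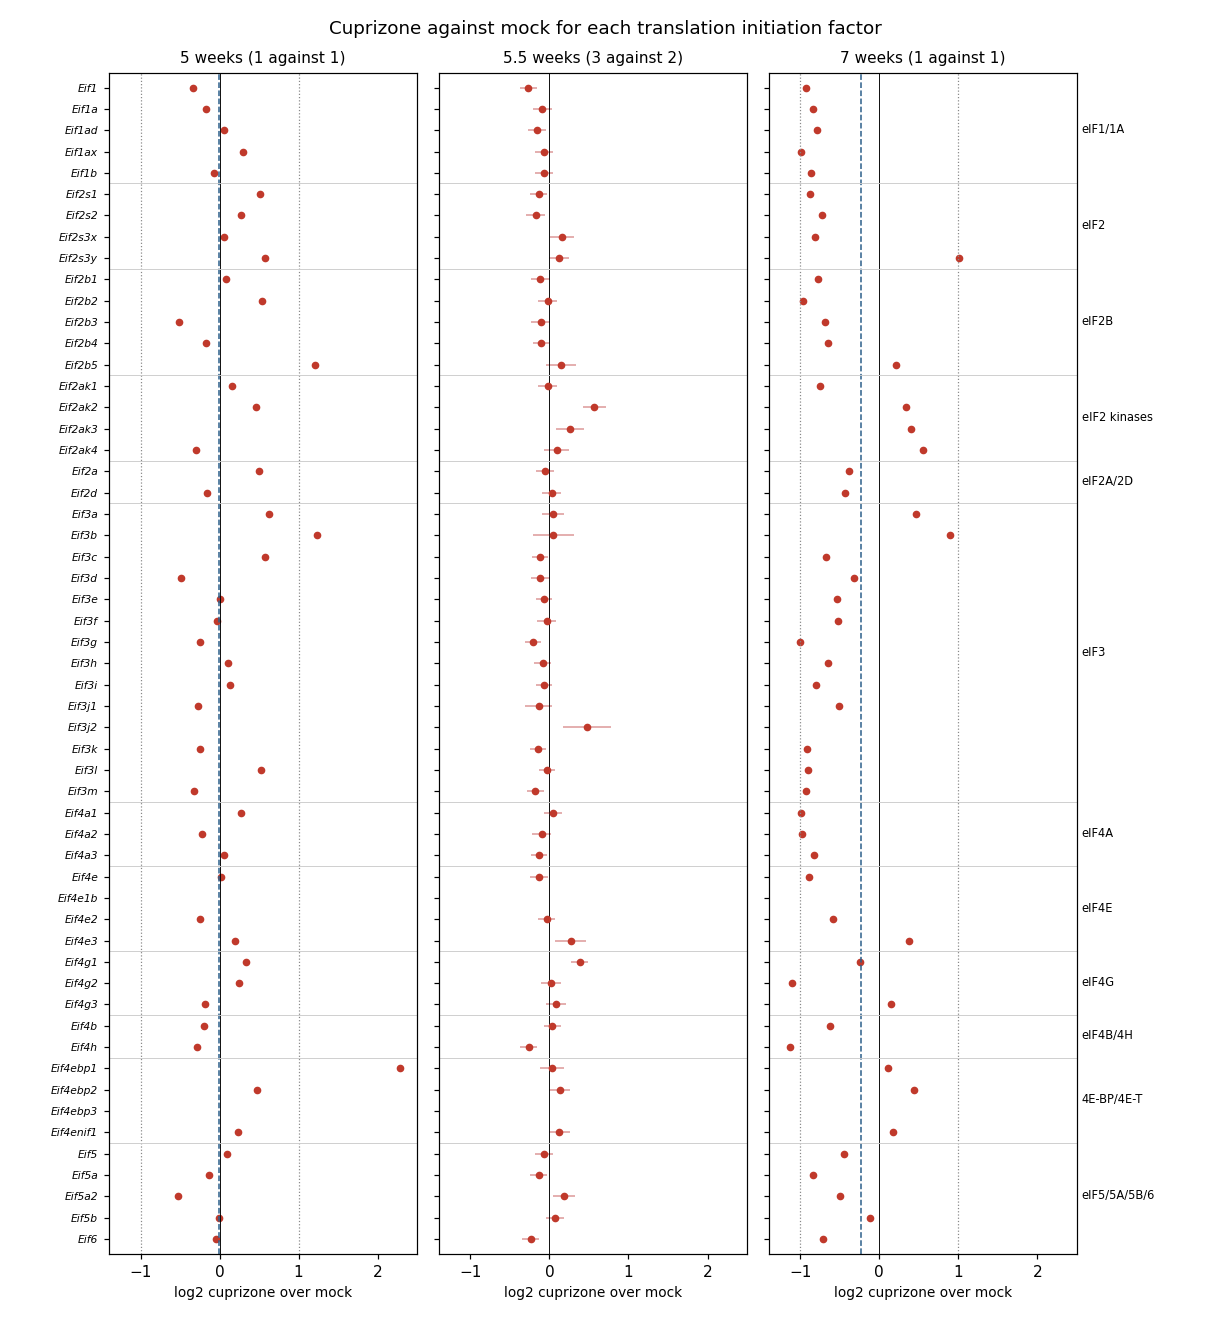
Log2 of cuprizone over mock, grouped by role, for the members measured at 5 weeks (51), tested at 5.5 weeks (53) and measured at 7 weeks (52). Bars at 5.5 weeks are standard errors. At 5 and 7 weeks dashed lines are the median of all genes measured and dotted lines 2-fold. At 5.5 weeks the members sit near 0, at 5 weeks Eif4ebp1 stands far to the right, and at 7 weeks 40 of 52 members lie below 0 with TMM scaling, or 36 with library totals.

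At 5.5 weeks, soon after the return to normal chow, no initiation factor passed the threshold. Of the 55 members, 53 had enough counts to be tested, and edgeR's quasi-likelihood test called 0 higher and 0 lower at an adjusted p under 0.05. Over all 16086 genes tested, 1.08% were called higher and 0.392% lower. The median log2 fold change of the 53 members was -0.05, beside 0.00 over all genes tested. With an unadjusted p under 0.05 there were 5 members, where 10.9% of all genes had one. Those 5 were Eif2ak2 and Eif4g1, both higher with cuprizone, and Eif1, Eif4h and Eif6, all lower. DESeq2 called 2 members, Eif2ak2 and Eif4g1, both higher, with an adjusted p of 0.0499 for each.

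Eif2ak2 encodes PKR, the eIF2α kinase that double-stranded RNA activates and interferon induces. Its level was 12.8 and 13.4 CPM in mock replicates 1 and 3, and 22.0, 19.3 and 17.1 CPM in cuprizone replicates 1, 2 and 3. Every cuprizone library lay above both mock libraries. The log2 fold change was 0.57 ± 0.15 (SE; 3 against 2 libraries), with an adjusted p of 0.1102 in edgeR's quasi-likelihood test. The other 3 kinases showed smaller values. Eif2ak3, which encodes PERK, the kinase of the endoplasmic reticulum stress response, was at 7.79 and 10.1 CPM in mock and 11.4, 11.7 and 9.06 CPM in cuprizone libraries. Eif2ak4, which encodes the amino acid sensor GCN2, was at 10.2 and 8.69 CPM against 10.9, 9.48 and 9.79 CPM. Eif2ak1, which encodes the heme-regulated kinase HRI, was at 76.1 and 76.0 CPM against 79.1, 66.4 and 79.1 CPM. For these 3 kinases the groups overlapped, and their edgeR adjusted p lay between 0.656 and 0.966.

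Eif4g1 encodes the main scaffold of the cap-binding complex. Its level was 194 and 201 CPM in the mock libraries and 269, 245 and 259 CPM in the cuprizone libraries, so the groups did not overlap. The log2 fold change was 0.38 ± 0.10 (SE), with an adjusted p of 0.126 by edgeR. Its relative Eif4g3 had a log2 fold change of 0.09 ± 0.13, and Eif4g2, a scaffold that lacks the eIF4E-binding part, 0.02 ± 0.13 (SE). Beside these 2 members, astrocyte markers summed to 10522 and 10975 CPM in the mock libraries and to between 13712 and 16115 CPM in the cuprizone libraries. Gfap alone was the 1 marker called (1146 ± 43.5 CPM in mock, SD, n = 2; 5425 ± 577 CPM in cuprizone, SD, n = 3); the median of the 10 markers was -0.06, and 3 of them lay below mock without overlap. Mature oligodendrocyte markers summed to 15135 and 15813 CPM against 18093 to 22189 CPM, with 2 of 8 called higher (Mag and Mog) and 1 lower. Microglia markers summed to 30.2 and 35.3 CPM against 41.6 to 53.7 CPM, with 0 of 8 called and none at 0. Choroid and ependymal markers summed to 46.5 and 52.2 CPM against 80.5 to 91.2 CPM, with 1 of 6, Ttr, called higher. The part of these cells in the values of Eif2ak2 and Eif4g1 was not tested.

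The members with an unadjusted p under 0.05 and lower values at 5.5 weeks were Eif1, Eif4h and Eif6. Eif1 was at 510 and 565 CPM in mock and 430, 460 and 451 CPM in cuprizone libraries. Eif4h was at 735 and 728 CPM against 650, 556 and 621 CPM. Eif6, which keeps the large ribosomal subunit from joining too early, was at 122 and 135 CPM against 110, 109 and 107 CPM. In all 3 the groups did not overlap, and the log2 fold changes were -0.27 ± 0.11 for Eif1, -0.26 ± 0.11 for Eif4h and -0.24 ± 0.10 for Eif6 (SE), with edgeR adjusted p of 0.360, 0.390 and 0.420. Eif3g, an RNA-binding subunit of eIF3, was at 164 and 177 CPM against 145, 153 and 144 CPM, with a log2 fold change of -0.21 ± 0.10 (SE). Over all members, cuprizone lay below mock without overlap in 12 and above it in 4 (Eif2ak2, Eif2s3y, Eif3j2 and Eif4g1). Over all genes tested these shares were 14.8% and 13.2%.

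By role, 4 of the 14 eIF3 subunit genes lay below mock without overlap (Eif3g, Eif3i, Eif3k and Eif3m) and 1 above (Eif3j2), beside 14.8% and 13.2% of all genes. Eif3j2 was at 1.18 and 1.34 CPM against 1.55, 2.35 and 1.38 CPM, on 34 to 52 counts a library. Its coding sequence is 99.2% identical to that of Eif3j1, so reads can be shared between the pair and both values are uncertain. All 5 genes of the eIF1 and eIF1A group had a log2 fold change below 0, from -0.27 to -0.07, and the eIF2B genes ran from -0.11 to 0.15. Eif4e3, a minor cap-binding protein, was at 3.57 and 4.46 CPM against 5.34, 4.33 and 4.76 CPM, which overlapped. Eif5a2, the second eIF5A gene, was at 38.7 and 48.3 CPM against 50.5, 44.1 and 53.7 CPM, which also overlapped.

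Of all members, Eif3b and Eif2b5 had the widest folds between the 2 mock libraries of 5.5 weeks. Eif2b5, which encodes the catalytic ε subunit of eIF2B, was at 45.5 CPM in mock replicate 1 and 76.8 CPM in mock replicate 3, with 72.8, 70.0 and 60.7 CPM in the cuprizone libraries. Eif3b, a scaffold subunit of eIF3, was at 34.3 and 64.6 CPM in the same mock libraries, with 52.9, 61.6 and 39.0 CPM in the cuprizone libraries. Mock replicate 1 was the lowest and mock replicate 3 the highest of the 5 libraries for both genes. The widest fold between libraries of 1 group was 1.69 for Eif2b5 and 1.88 for Eif3b, beside 1.17 for Eif4ebp1.

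At 5 weeks, at the end of cuprizone feeding, Eif4ebp1 stood apart from every other initiation gene. It encodes 4E-BP1, the repressor that binds eIF4E. Its level was 11.8 CPM in the mock library and 57.5 CPM in the cuprizone library (241 and 1236 counts), a ratio of 4.89-fold with an exact 95% Clopper-Pearson interval of 4.26 to 5.64 that covers counting error only. Weeks were scaled separately. In the libraries of the later weeks Eif4ebp1 stayed between 9.73 and 12.4 CPM: 9.73 and 11.4 CPM in mock and 10.9, 11.3 and 10.1 CPM in cuprizone at 5.5 weeks, and 11.5 CPM in mock and 12.4 CPM in cuprizone at 7 weeks. A level above 12.4 CPM was seen in the 5-week cuprizone library alone. At 5.5 weeks its log2 fold change was 0.03 ± 0.15 (SE), with a 95% interval of -0.30 to 0.36. Eif4ebp2 was then at 19.3 and 17.4 CPM in mock and 20.5, 20.8 and 19.1 CPM in cuprizone libraries, which overlapped, with a log2 fold change of 0.13 ± 0.13 (SE).

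Over the whole set, 51 members were measured at 5 weeks (at least 5 CPM in a library). Of these, 3 reached a 2-fold higher level with cuprizone and 0 a 2-fold lower one, where 8.89% and 12.2% of the 11570 genes measured were. Besides Eif4ebp1 these were Eif3b and Eif2b5. Eif3b went from 25.7 to 60.4 CPM, a ratio of 2.35-fold (interval 2.12 to 2.61). Eif2b5 went from 44.3 to 102 CPM, a ratio of 2.30-fold (interval 2.13 to 2.49). Both ratios exceed the widest fold between libraries of 1 group at 5.5 weeks, and the 5-week cuprizone level of Eif2b5 lies above all other libraries. The 5-week cuprizone level of Eif3b lies inside the range of the mock libraries at other weeks, which reached 64.6 CPM. In all, 17 of the 51 members were higher and 12 lower by more than their own widest within-group fold at 5.5 weeks, where 31.4% and 32.6% of all genes were. The median log2 ratio of the members was 0.06, beside -0.00 over all genes measured.

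**Figure D2:**
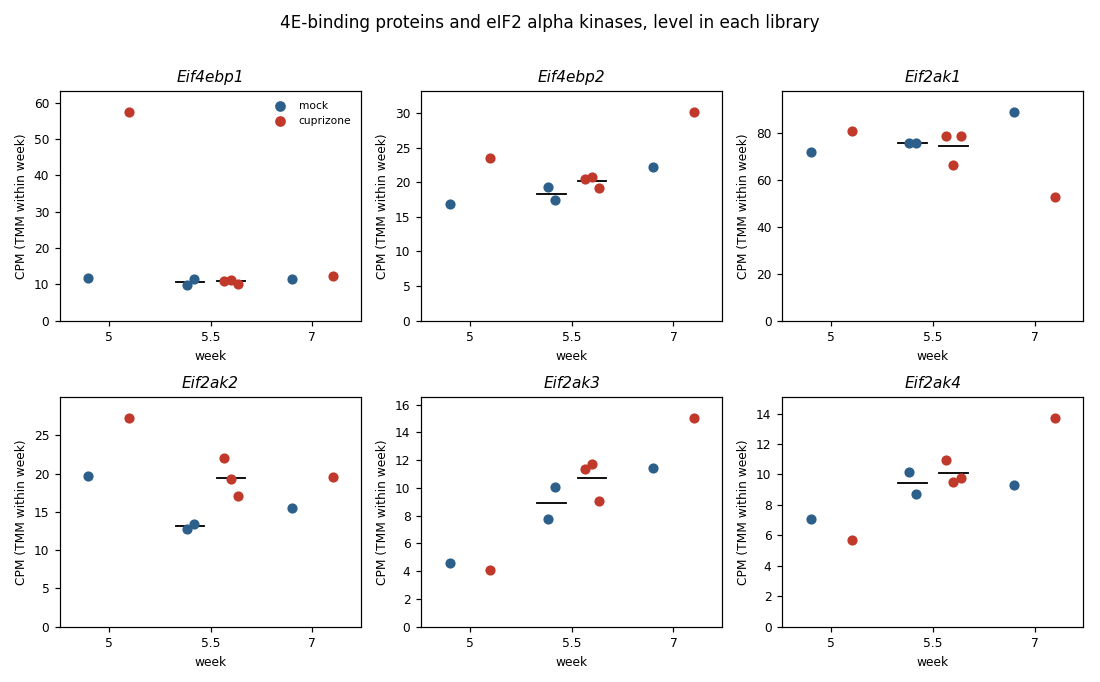
CPM of the measured 4E-binding proteins and of the 4 eIF2α kinases in each of the 9 libraries, mock in blue and cuprizone in red, by week; bars mark means of groups with more than 1 library. Eif4ebp1 reaches 57.5 CPM in the 5-week cuprizone library and lies between 9.73 and 12.4 CPM in the rest, and Eif2ak2 is higher with cuprizone at every week with TMM scaling.

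The other members with the largest log2 ratios at 5 weeks were subunit genes with ratios under 2-fold. In eIF3, Eif3a, the largest subunit, went from 113 to 174 CPM (log2 ratio 0.62), Eif3c from 251 to 374 CPM (0.58) and Eif3l from 95.3 to 137 CPM (0.53). In the eIF2 and eIF2B complexes, Eif2s3y, the Y-linked copy of the γ subunit, went from 28.5 to 42.7 CPM (0.58) and Eif2b2, the β subunit of eIF2B, from 70.6 to 102 CPM (0.54). Lower values were seen for Eif2b3, the γ subunit of eIF2B, which went from 65.0 to 45.3 CPM (-0.52), and for Eif5a2, from 52.9 to 36.6 CPM (-0.53). Subunits of the same complex differed in opposite directions: within eIF2B, Eif2b5 and Eif2b2 were higher and Eif2b3 lower. All 4 eIF2 subunit genes had a ratio above 0, from 0.06 to 0.58. Eif2s1 and Eif2s2, the α and β subunits, went from 99.3 to 141 CPM and from 142 to 171 CPM.

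The remaining regulators differed less at 5 weeks. Eif4ebp2, which encodes the 4E-binding protein most abundant in brain, went from 16.8 to 23.5 CPM (1.40-fold, interval 1.21 to 1.61). The coding sequences of Eif4ebp1 and Eif4ebp2 are 66.4% identical, with no identical run over 14 bases. Eif4enif1, which encodes the eIF4E transporter, went from 25.1 to 29.5 CPM. Eif2ak2 went from 19.7 to 27.2 CPM (1.38-fold, interval 1.22 to 1.57) and Eif2ak1 from 72.3 to 80.9 CPM. Eif2ak3 (4.58 and 4.09 CPM) was under the 5 CPM minimum, and the interval of Eif2ak4 (7.07 and 5.72 CPM; 0.809-fold, 0.631 to 1.04) includes 1.

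A list of genes tied to eIF2α phosphorylation, as responders or in its control, was followed beside the kinases. Of the 16 on that list, 15 were measured at 5 weeks, and 6 were at least 2-fold higher and 0 lower: Atf3, Atf5, Ddit3, Nupr1, Ppp1r15a and Trib3. Over all genes measured these shares were 8.89% and 12.2%. Trib3, a pseudokinase induced by stress, went from 1.02 to 35.3 CPM (21 and 759 counts, 34.5-fold, interval 22.4 to 56.0). Nupr1, a stress-induced chromatin protein, went from 24.8 to 262 CPM (10.6-fold, interval 9.66 to 11.6). Atf3, a stress transcription factor, had 0 counts in mock and 122 in cuprizone, which is at least 38.8-fold higher against a floor of 3 counts in the mock library. Atf4 itself, which is regulated mainly in translation, went from 80.1 to 60.8 CPM. The median log2 ratio of the list was 0.33.

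At 5.5 weeks 2 of these 16 genes were called higher and 0 lower by edgeR, where 1.08% and 0.392% of all genes tested were. Nupr1 was at 8.00 and 11.6 CPM in mock and 24.6, 26.7 and 19.8 CPM in cuprizone libraries, with a log2 fold change of 1.28 ± 0.19 (SE) and an edgeR adjusted p of 0.00711. Atf3 was at 0.485 and 0.223 CPM against 1.89, 1.67 and 2.42 CPM, with 2.47 ± 0.38 (SE) and an edgeR adjusted p of 0.00829. Trib3 (0.371 ± 0.210 CPM in mock, SD, n = 2; 1.116 ± 0.184 CPM in cuprizone, SD, n = 3) had a log2 fold change of 1.57 ± 0.41 (SE) and an edgeR adjusted p of 0.111. At 7 weeks 13 of the list were measured, and 1, Nupr1, was at least 2-fold higher, at 16.4 and 33.6 CPM, where 9.9% of all genes were. The list was chosen with earlier results of these data known, so its direction is not independent evidence.

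The other machinery around initiation gave few large ratios. At 5 weeks 8.89% of all genes measured were at least 2-fold higher and 12.2% lower. Of 16 genes around mTORC1 and eIF4E, 2 were at least 2-fold higher at 5 weeks and 0 lower, with a median log2 ratio of 0.11. These were Castor1, an arginine sensor upstream of mTORC1 (2.83 to 7.02 CPM), and Sesn2, a leucine sensor induced by stress (17.8 to 37.3 CPM). Next in size were Mknk1, which went from 17.6 to 31.1 CPM, and Castor2, from 57.0 to 36.0 CPM. Of 10 elongation and release genes, 1 was at least 2-fold higher, the release factor gene Gspt1 (37.1 to 83.5 CPM), with a median of -0.14, and Eef1b2 went from 116 to 70.5 CPM and Eef1a2 from 9.56 to 6.42 CPM. Of 13 cofactors of initiation, 1 was lower, Mcts2 (27.1 to 12.2 CPM), with a median of 0.02, and Mcts1 and Pabpc4 went from 132 to 72.4 CPM and from 10.1 to 15.0 CPM. At 5.5 weeks edgeR called 0 genes on each of these 3 lists, where it called 1.08% of all genes higher and 0.392% lower. On the lists 3, 0 and 1 genes had an unadjusted p under 0.05, where 10.9% of all genes tested did. The largest log2 fold changes there were 0.59 for Castor1, -0.43 for Deptor and 0.37 for Sesn2 on the mTORC1 list, 0.15 each for Gspt1 and Gspt2 and -0.10 for Eef1a2 among elongation and release genes, and -0.33 for Paip1, -0.30 for Mcts1 and -0.28 for Mcts2 among the cofactors.

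Beside the 5-week values, microglia markers summed to 39.98 CPM in mock and 70.6 CPM in cuprizone, with 4 of 6 measured markers at least 2-fold higher. Mature oligodendrocyte markers summed to 14931 and 10096 CPM, with 5 of 8 at least 2-fold lower, and astrocyte markers to 8967 and 18725 CPM. In the astrocyte sum the highest levels in the cuprizone library were those of Gfap (900.2 CPM in mock and 9691 CPM in cuprizone) and Aldoc (4045 and 5821 CPM): 4 of the 10 markers had a log2 ratio above 0, the median was -0.25, and Fgfr3 was 2.33-fold lower. None of these 3 lists had a marker at 0. Their part in the 5-week ratios was not tested.

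**Figure D3:**
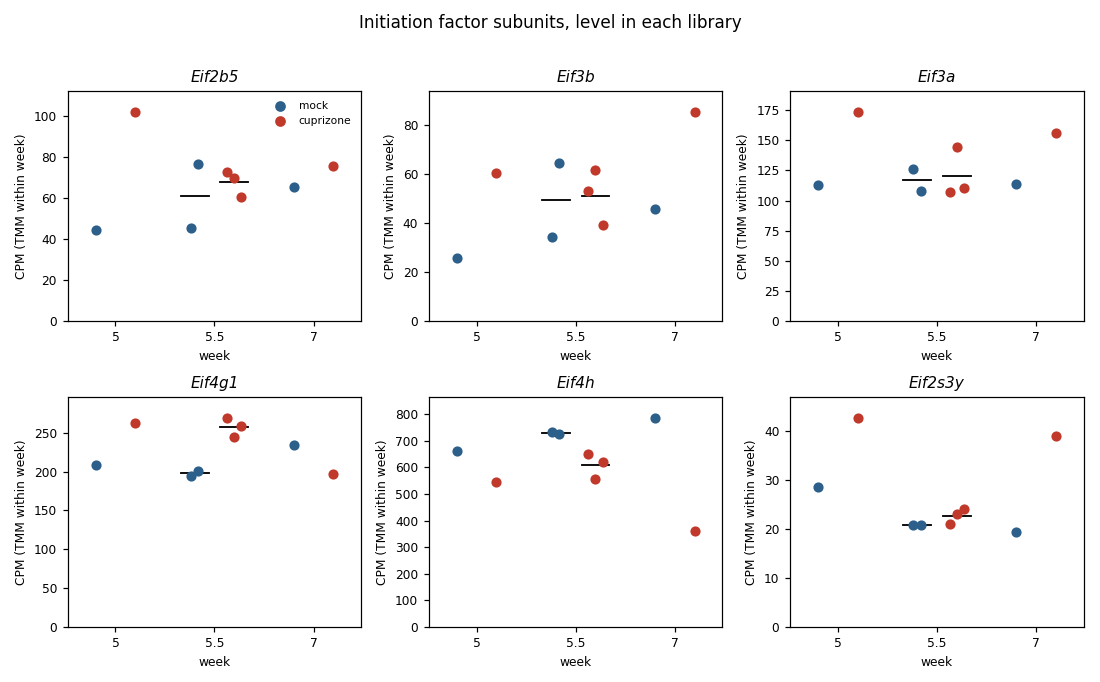
CPM of 6 subunit and cofactor genes in each of the 9 libraries, mock in blue and cuprizone in red, by week; bars mark means of groups with more than 1 library. Eif2b5 and Eif3b spread widely between the mock libraries of 5.5 weeks, Eif4g1 separates the groups there, and Eif4h is at 359 CPM and Eif2s3y reaches 39.1 CPM in the 7-week cuprizone library.

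At 7 weeks most initiation genes were lower in the cuprizone library than in the mock library, by more than the median gene. The cuprizone library of that week stands apart from the rest: 34576 genes had a count there, against at most 23980 in any other library kept. Microglia markers summed to 745 CPM in it and to 51.5 CPM in its mock, with 8 of 8 at least 2-fold higher. Endothelial and pericyte markers summed to 382 and 25.6 CPM, with 6 of 6 higher, and lymphocyte markers to 3.11 and 0.0763 CPM. None of these markers was at 0 in the cuprizone library. Neuron markers summed to 7193 CPM in the cuprizone library and 12166 CPM in its mock, a sum in which Snap25 (3307 and 6858 CPM) and Camk2a (1275 and 2417 CPM) weigh most, while 3 of the 8 had a log2 ratio above 0 and Gad1 was 5.13-fold higher. The part of these cells in the values of the initiation genes was not tested.

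The result also depends on how the libraries are scaled. With TMM the median log2 ratio of all 12173 genes measured was -0.23, and with library totals it was 0.22. The median of the 52 members measured was -0.66 with TMM, -0.23 with library totals and -0.43 when centred on the median of all genes. With TMM 39 of the 52 members lay below the median of all genes and 13 above it; the other scalings move all genes alike, so this split is the same by construction. The 13 were Eif2ak2, Eif2ak3, Eif2ak4, Eif2b5, Eif2s3y, Eif3a, Eif3b, Eif4e3, Eif4ebp1, Eif4ebp2, Eif4enif1, Eif4g3 and Eif5b. With TMM, 12 members were above 0, where 37.3% of all genes were, and 40 below, and 4 of these turned above 0 with library totals (Eif2a, Eif3d, Eif4g1 and Eif5b), 1 of which, Eif5b, also did when centred.

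**Figure D4:**
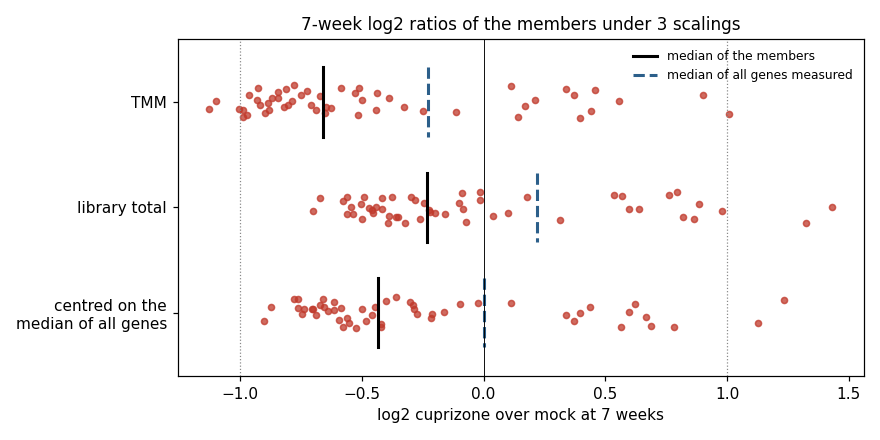
Log2 of cuprizone over mock at 7 weeks for the 52 members measured, under 3 scalings; black bars are medians of the members, dashed blue bars medians of all genes measured, dotted lines 2-fold. The scalings shift members and all genes alike, with medians of -0.66 against -0.23 with TMM, -0.23 against 0.22 with library totals and -0.43 against 0 when centred.

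The 7-week ratio went with a gene's level, among the members and among all genes. The 24 members at 100 CPM or more in the 5.5-week mock libraries had a median log2 ratio of -0.86 with TMM, beside -0.63 for the 2296 genes of that level. The 18 members from 30 to 100 CPM had a median of -0.62, beside -0.38 for 3790 genes. The 10 members under 30 CPM had a median of 0.35, beside 0.08 for 5988 genes. At 5 weeks the same bins held members with medians of 0.06, -0.01 and 0.23, beside -0.07, -0.01 and 0.05 for all genes. Per kb of exon, the 13 members above the median of all genes at 7 weeks ranked between 25 and 52 of the 55 in level, so none of the 24 most abundant was among them.

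At least 2-fold differences at 7 weeks with TMM were seen in 1 member higher and 3 lower, where 9.9% and 5.54% of all genes measured were. Eif2s3y was higher, at 19.4 and 39.1 CPM (2.01-fold, interval 1.81 to 2.24), while its X-linked copy Eif2s3x, 86.3% identical in coding sequence, was lower, at 15.8 and 8.98 CPM. Eif4h went from 786 to 359 CPM, which is 2.19-fold lower (interval 2.14 to 2.24), Eif4g2 from 1167 to 544 CPM, 2.14-fold lower (2.10 to 2.19), and Eif3g from 212 to 106 CPM, 2.01-fold lower (1.92 to 2.10). With library totals or centring, these 3 stayed below 0 but were under 2-fold, while Eif2s3y and Eif3b were over 2-fold higher. Of all genes, 2197 of 12331 were at least 2-fold higher and 112 lower with library totals. When centred, 1575 of 12173 were higher and 216 lower. Eif3b, at 45.8 and 85.4 CPM, was 1.87-fold higher with TMM, within the widest fold between libraries of 1 group at 5.5 weeks.

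Close behind at 7 weeks with TMM were the 2 cytoplasmic helicase genes, the eIF1 group and further subunits. Eif4a1 went from 611 to 308 CPM and Eif4a2 from 810 to 413 CPM, log2 ratios of -0.99 and -0.97. Eif1ax went from 292 to 147 CPM (-0.99) and Eif1 from 747 to 393 CPM (-0.93), Eif2b2 from 83.6 to 42.8 CPM (-0.96) and Eif3m from 94.9 to 49.7 CPM (-0.93). All 5 eIF1 and eIF1A genes were lower, from -0.99 to -0.79, and 11 of the 13 eIF3 genes measured, while Eif3a was higher (113 and 156 CPM, 0.46). Among the regulators, most had higher values: Eif4ebp1 was at 11.5 and 12.4 CPM, Eif4ebp2 at 22.2 and 30.1 CPM, Eif2ak2 at 15.5 and 19.6 CPM, Eif2ak3 at 11.4 and 15.0 CPM and Eif2ak4 at 9.31 and 13.7 CPM. The ratios of Eif4ebp1 and Eif2ak2 were within their widest fold between libraries of 1 group at 5.5 weeks, and 54.5% of all genes under 30 CPM had a ratio above 0 at 7 weeks. Of the kinases only Eif2ak1, the most abundant of the 4, was lower, at 89.1 and 53.0 CPM. In all, 6 of 52 members were higher and 38 lower by more than their widest within-group fold at 5.5 weeks, where 21.2% and 46.3% of all genes were.

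At 7 weeks the median log2 ratio was -0.50 for the 13 cofactors and -0.37 for the 10 elongation and release genes. It was -0.17 for the 15 genes measured around mTORC1 and eIF4E, beside -0.23 for all genes with TMM. At least 2-fold differences on these lists were seen in Mcts1 (99.4 and 48.1 CPM), in Ddit4, an inhibitor of mTORC1 (116 and 53.1 CPM), and in Rps6kb2, an S6 kinase gene (8.70 and 30.2 CPM). Of all genes measured, 9.9% were at least 2-fold higher and 5.54% lower. Next in size on the mTORC1 list was Tsc1 (16.02 and 30.6 CPM). Among elongation and release genes the largest log2 ratios were -0.82 for Etf1, -0.76 for Eef1d and -0.61 for Eef1a2. Mcts2 and Paip2 followed among the cofactors (-0.66 each), and Nck1 and Asns on the eIF2α list (-0.79 and -0.57).

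Whether the cuprizone effect itself differed between weeks was tested in 1 edgeR fit of all 9 libraries, in which the lone libraries borrow the spread of the 5.5-week groups. Between 5.5 and 5 weeks, 3 members differed at an adjusted p under 0.05, where 23.2% of the 20292 genes tested did. The difference was 2.19 ± 0.28 for Eif4ebp1 (SE, log2, 5 weeks minus 5.5 weeks), with an edgeR adjusted p of 1.33e-05. For Eif3c it was 0.62 ± 0.21 (adjusted p 0.0320) and for Eif5a2 -0.79 ± 0.26 (adjusted p 0.0298). Between 5.5 and 7 weeks 17 members differed (17.2% of all genes), and 16 of these had the lower effect at 7 weeks, Eif2s3y being the exception. Between 5 and 7 weeks 16 members differed (32.2% of all genes), among them Eif4ebp1, with a difference of -2.01 ± 0.34 (SE, adjusted p 0.000159). In the same fit 5 members were higher and 3 lower at 5 weeks at an adjusted p under 0.05 (14.6% and 18.5% of all genes), and 2 higher and 30 lower at 7 weeks (24% and 15.4% of all genes). The cuprizone effect at 5 weeks was 1.14 ± 0.31 for Eif2b5 (adjusted p 0.0150) and 1.17 ± 0.53 for Eif3b (adjusted p 0.165).

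Of the 55 members, 22 share exon bases with another annotated gene, 9 of them over 10% of their exon length. Whether counting used strand is not given in the sources used here, and reads from such overlaps cannot be assigned to either gene. Eif3d, which shares 43.3% of its exon bases with Gm17638, is the measured member with the largest overlap. Eif4ebp1, Eif2b5 and Eif3b share none.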

How the data were processed

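The authors' deposited files give counts per Ensembl gene. Per the submitters' processing notes they were made with FastQC 0.11.9, STAR 2.5.4b and featureCounts 1.6.0. The genome builds GRCm38 and GRCm39 are both named there without a role, so no gene coordinates are given, and promoter windows carry the build of the RefSeq table. Per the labels, libraries were made with a low-input kit from immunoprecipitated RNA. The deposited values of 8 libraries repeat another library of the group in a large share of genes, have no stated unit and were not used. The library they repeat served as 1 sample, and the p-values measure spread between the remaining libraries, which the labels call biological replicates.

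Symbols came from GENCODE M21, with a match for 99.6% of 55471 identifiers in batch 1 and 94.1% of 55414 in batch 2. At 5.5 weeks, genes kept by filterByExpr (minimum count 10) were TMM-scaled and the two-sided quasi-likelihood F test of edgeR 4.0.16 (robust) was applied, with Benjamini-Hochberg adjustment over all genes and a threshold of 0.05. At 5 and 7 weeks the log2 ratio of CPM with a prior count of 2 was taken for genes at 5 CPM or more in at least 1 library, and 2-fold served as the measure. Exact 95% intervals on ratios of counts cover counting error only. Differences between weeks were tested in an edgeR fit of all 9 libraries. Alternatives were DESeq2 1.42.0, other scalings, filters and prior counts, each library left out, the replicate block and all libraries as deposited. The computations were tested on simulated data. Tools were R 4.3.3, limma 3.58.1, Python 3.11.15 and pandas 2.3.3.

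Values in every library are given for Eif4ebp and Eif2ak genes, for members called at 5.5 weeks, and for the 10 members with the largest absolute log2 value in each comparison; genes of the 4 pathway lists are named when called or among the 3 largest of a week. Others named (Eif2b5 and Eif3b at 5.5 weeks among them) were chosen after their values were seen. The members and lists were chosen with earlier results of these data known.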

Additional observations from a re-analysis of the deposited data

Results flagged for a closer look

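The cuprizone effects of some members differed between weeks in the edgeR fit of all 9 libraries, at an adjusted p under 0.05 for the difference itself. Values are differences of log2 effects, the later-named week minus the first. The lone libraries of 5 and 7 weeks were assumed to vary like the 5.5-week groups, and week and batch cannot be told apart where 5 weeks enters.

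From 5.5 to 5 weeks the difference was 2.19 for Eif4ebp1, 0.62 for Eif3c and -0.79 for Eif5a2. These comparisons share their 5.5-week libraries with the next ones.

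From 5.5 to 7 weeks Eif2s3y had the 1 positive difference, 0.98. The cap-binding and helicase genes differed by -1.03 (Eif4g2), -0.94 (Eif4a1), -0.78 (Eif4a2), -0.77 (Eif4h) and -0.66 (Eif4e). The eIF1 and eIF2 side differed by -0.83 (Eif1ax), -0.70 (Eif1b), -0.65 (Eif2s1), -0.88 (Eif2s3x) and -0.85 (Eif2b2). The eIF3 subunits differed by -0.70 (Eif3g), -0.65 (Eif3i), -0.68 (Eif3k), -0.78 (Eif3l) and -0.66 (Eif3m), and Eif5a by -0.62.

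From 5 to 7 weeks Eif4ebp1 differed by -2.01, and Eif2ak4 had the 1 positive difference, 1.03, while Eif2ak1 differed by -0.75. The eIF2, eIF2A and eIF2B genes differed by -1.23 (Eif2s1), -0.83 (Eif2s2), -0.73 (Eif2a) and -1.34 (Eif2b2). Eif3 subunits differed by -1.09 (Eif3c), -0.78 (Eif3i) and -1.27 (Eif3l). The remaining differences were -1.12 (Eif1ax), -1.10 (Eif4a1), -0.72 (Eif4a3), -0.75 (Eif4e), -1.18 (Eif4g2) and -0.69 (Eif4h).

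Beside every difference that involves 7 weeks stands the makeup of its cuprizone library, where microglia markers summed to 745 CPM and endothelial and pericyte markers to 382 CPM, against at most 70.6 and 29.5 CPM in the other 8 libraries. Its part in these differences was not tested.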

How the results depend on the processing

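At 5.5 weeks, edgeR called 0 members higher; this became 1 (Eif2ak2) with no filter on low counts and 2 (Eif2ak2 and Eif4g1) with DESeq2 and with all 17 libraries as deposited. The edgeR adjusted p was 0.0276 for Eif2ak2 with no filter, and 0.00143 and 0.00256 for Eif2ak2 and Eif4g1 with all 17 libraries. The setting with all 17 libraries counts the 8 repeats as separate samples, so its p-values do not measure spread between samples. Over all genes, 173 were called higher by edgeR, 381 with no filter, 247 with DESeq2 and 614 with all 17 libraries. Leaving out each library in turn gave 0 to 0 calls, with log2 fold changes of 0.47 to 0.65 for Eif2ak2 and 0.35 to 0.42 for Eif4g1 and edgeR adjusted p of 0.102 to 0.471 and 0.0843 to 0.496. Values near 0 changed sign when a library was left out: Eif4ebp1 ranged from -0.082 to 0.16, Eif2ak4 from -8.44e-06 to 0.22 and Eif2ak1 from -0.064 to 0.057, and with all 17 libraries Eif2ak1 was 0.017. With the replicate block 2 members were called, with edgeR adjusted p of 0.0169 for Eif2ak2 and 0.0261 for Eif4g1. That setting called 527 of all genes higher and 298 lower, against 173 and 63 in the main setting. Eif2ak1 (0.057) and Eif4ebp1 (-0.00073) changed sign with it. Deviations of same-numbered libraries from their group means had correlations of 0.04 and -0.08. With 2 mock libraries, whose deviations mirror each other, these values cannot decide whether the numbers pair the samples.

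At 5 weeks the 3 members over 2-fold were the same under the other scalings, prior count, filter and mean of the group. By adjusted p in the fit of all 9 libraries 5 were higher (Eif2b5, Eif3a, Eif3c, Eif3l and Eif4ebp1) and 3 lower (Eif2b3, Eif3d and Eif5a2). At 7 weeks library totals, and centring on the median of all genes (chosen after seeing the data), each gave 2 members higher and 0 lower, the mean of the group gave 0 higher, and adjusted p in the fit of all 9 libraries gave 2 higher and 30 lower, where 24% and 15.4% of all genes were. With all 17 libraries as deposited, effects differed for 39 members between 5.5 and 7 weeks, 15 between 5.5 and 5 weeks and 36 between 5 and 7 weeks. At 5.5 weeks that setting called 614 of all genes higher, against 173 in the main setting. Its share of all genes with differing effects is not given, so these member counts do not set initiation genes apart. Over all genes at 7 weeks, library totals gave 2197 of 12331 at least 2-fold higher and 112 lower. Centring gave 1575 of 12173 higher and 216 lower, and the mean of the group 1077 of 12215 higher. The scaling at 7 weeks shifts all genes, as given with the result, and the setting with all 17 libraries counts repeats as samples. The cause of the other moves was not tested. Depth limits the low members: Eif3j2 rests on 21 to 52 counts a library.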
